A study of Homo sapiens with 4 samples.

Results

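The protocadherins were followed as a family in HGC-27 gastric carcinoma cells with USP47 knocked down. Members were all protein-coding genes whose symbol begins with PCDH, leaving out the copy on the Y chromosome and the pseudogenes. The annotation (GENCODE on GRCh37) held 65 such genes. Of these, 63 had an identifier among the 63568 in the count files, and 58 passed the filter on low counts and were tested. Members fell into the alpha cluster (15 genes), the beta cluster (16 genes), the gamma cluster (22 genes in the annotation, 21 in the files) and the solitary protocadherins (12 genes in the annotation, 11 in the files). The identifiers of PCDHGB5 and PCDH20 were not among those in the files, and the identifier of PCDHB16 stood at 0 in all 4 libraries.

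Protocadherins are cadherin-superfamily receptors with extracellular cadherin repeats that bind the same isoform on a neighbouring cell. In the clustered genes each large variable exon has its own promoter and encodes the extracellular, transmembrane and near-membrane parts. In the alpha and gamma clusters the variable exon is spliced to constant exons that encode a shared cytoplasmic end, whereas the beta genes have no constant exons. Neurons switch on a few of these promoters in each cell, so that neighbouring cells carry different isoform sets. The choice depends on CTCF, cohesin and DNA methylation. The solitary delta protocadherins are scattered over the genome and have longer cytoplasmic tails with conserved motifs. Several of them are known for silencing by promoter methylation in carcinomas, gastric carcinoma among them.

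HGC-27 is an established human gastric carcinoma line. Cells were infected with a lentivirus carrying either a scrambled shRNA (control shRNA, 2 libraries) or an shRNA against USP47 (USP47 shRNA, 2 libraries), and polyadenylated RNA was sequenced. USP47 is a deubiquitinating enzyme, and the comparison asks which transcripts differ when it is depleted. The labels do not say which USP47 shRNA each library carried, and effects of an shRNA outside USP47 cannot be told apart from those of USP47. The labels do not say whether the 2 libraries of a group came from separate cultures, so p-values measure only the spread between these libraries. Total counts per library ranged from 15649899 to 20140273. The targeted gene itself, USP47, had 1357 and 1297 counts in the controls against 749 and 309 in the knockdown (log2 fold change -1.34 ± 0.21 SE, adjusted p = 0.00362 in edgeR), so the second knockdown library held the fewest. Epithelial markers were low, with KRT18 and KRT19 at no more than 1 count per library. Of the 3 tested, 1, EPCAM, was called lower (12 and 11 against 3 and 3 counts). CDH1 (13 and 12 against 28 and 8 counts, 0.56) and KRT8 (-0.46) were not called. Of the mesenchymal markers, VIM held 7201 to 9236 counts and CDH2 3 to 10, and FN1 was called lower (1240 and 1448 against 545 and 459 counts, -1.34). Among neuronal markers, STMN2 was at 0 in every library and SYT1 held 281 to 502 counts. The summed neuronal list stood at 38.1 and 33.2 CPM (counts scaled to a fixed library total) in the controls and 27.7 and 24.5 CPM in the knockdown, and 1 of its 4 tested members, SNAP25, was lower. DESeq2's Wald test called no epithelial or neuronal marker after correction. The part of the listed markers in the results was not tested.

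In USP47-knockdown cells 12 protocadherins fell and 2 rose, and 8 of the 12 were genes of the beta cluster. A gene was called lower or higher when edgeR's quasi-likelihood test gave it a p, corrected over all 21932 genes tested, of under 0.05. These were 12 and 2 of 58 tested members, beside 9.56% of all genes tested called lower and 6.52% called higher. By cluster, the genes called lower were 8 of 14 tested beta genes (16 in the files) and 2 of 15 alpha genes, all tested. They were 0 of 20 tested gamma genes (21 in the files) and 2 of 9 tested solitary genes (11 in the files). Called higher were 1 gamma and 1 solitary gene. At an unadjusted p under 0.05, 25 of the 58 tested members were lower and 3 higher, beside 17.2% and 14.8% of all genes tested. DESeq2's Wald test called 3 members lower (PCDHB6, PCDHB10 and PCDH9) and 2 higher (PCDHGC3 and PCDH12), beside 6.81% and 6.46% of the genes to which it gave an adjusted p. The count of lower members in edgeR was 3 without the first control library and 6 without the second, and 20 without the first knockdown library and 17 without the second. The share of all genes called lower moved with it, to 4.30%, 4.88%, 16.9% and 16.1%.

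The sum of each cluster takes in members below the filter as well. Levels here are CPM after scaling by edgeR's TMM factors. The beta cluster summed to 87.1 and 88.6 CPM in the control libraries and to 52.4 and 55.8 CPM in the knockdown libraries, so the groups did not overlap. The knockdown mean was 61.6% of the control mean (87.9 ± 1.03 against 54.1 ± 2.40 CPM, SD, n = 2). The alpha cluster summed to 101 and 94.8 CPM in the controls and 72.8 and 72.3 CPM in the knockdown, or 74.1% of the control mean. The gamma cluster stood at 117 and 116 CPM against 112 and 122 CPM, with overlapping groups. Its log2 ratio was 0.01 after TMM and 0.03 with DESeq2's size factors, but -0.06 by library size alone and -0.11 in the deposited TPM, so no direction could be read from it. The solitary members summed to 502 and 499 CPM against 490 and 492 CPM, a log2 ratio of -0.03 that differed from 0 by less than the choice of scaling moved it. With 2 libraries per group an exact two-sided permutation test cannot go below 0.333, so these sums were not tested.

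The beta genes are intron-poor genes that each make a whole receptor without a constant end. All 14 tested beta genes had fitted log2 fold changes below 0, from -1.39 to -0.36 with a median of -0.76, against a median of -0.01 over all genes tested. Under DESeq2's size factors or library size alone, 14 of 14 stayed below 0. In all 14, both knockdown libraries lay below both controls, an arrangement found in 31.7% of all genes tested. PCDHB6 (chromosome 5, 140529638 to 140532868) had the largest fall. It was counted 154 and 199 times in the controls and 69 and 59 times in the knockdown. Its level went from 9.61 ± 0.752 to 3.71 ± 0.561 CPM (SD, n = 2), a log2 fold change of -1.39 ± 0.19 (adjusted p = 0.00194 in edgeR). PCDHB6 was also the beta gene called in every leave-one-out fit and in every other alternative. Its share of the beta counts was 10.4% (95% Wilson interval 8.96 to 12.1) and 11.4% (10.0 to 13) in the controls, and 6.33% (5.03 to 7.93) and 7.37% (5.75 to 9.39) in the knockdown. The share was lower in both knockdown libraries than in both controls. This follows from PCDHB6 having the largest fall and is no separate result. The intervals of the first control and the second knockdown library overlapped. Such intervals cover counting error only.

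PCDHB10 and PCDHB8 followed. PCDHB10 was counted 72 and 98 times in the controls and 37 and 36 times in the knockdown, with a log2 fold change of -1.14 ± 0.24 (adjusted p = 0.0124 in edgeR). PCDHB8 gave 57 and 62 against 31 and 21 counts, also -1.14 ± 0.24. In neither gene did the groups overlap. PCDHB8 carried the most shared sequence of the called genes: 25.6% of the 100-base stretches in its exons occurred in another clustered protocadherin, against 17.7% in PCDHB10 and 4.50% in PCDHB6. Reads from such stretches could be assigned to either copy or dropped.

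The remaining called beta genes fell by less. PCDHB15 was counted 47 and 47 times in the controls and 28 and 19 times in the knockdown (log2 fold change -0.94), PCDHB9 99 and 106 against 63 and 41 (-0.93), and PCDHB4 57 and 69 against 43 and 28 (-0.77). PCDHB2 and PCDHB11, the beta genes with the highest level per length, had the smallest falls among those called. Small falls pass the threshold more readily at high counts, so this order depends on the calling. PCDHB3 (-0.45) and PCDHB12 (-0.36), at lower counts, fell by less and were not called. Over the 14 tested beta genes, level in CPM and fitted change correlated at a Spearman's rho of 0.22. PCDHB2 gave 436 and 534 counts in the controls and 357 and 274 in the knockdown (-0.55 ± 0.14), and PCDHB11 gave 250 and 311 against 207 and 161 (-0.54 ± 0.15). In both genes the groups were separate. After scaling, PCDHB2 stood at 25.7 and 27.2 CPM in the controls and 17.2 and 19.1 CPM in the knockdown. The antisense gene PCDHB1-AS1, not among the identifiers in the files, covers 43.8% of the PCDHB2 exon bases. DESeq2's Wald test did not call PCDHB2, PCDHB4, PCDHB8, PCDHB9, PCDHB11 or PCDHB15, with adjusted p from 0.0554 (PCDHB2) to 0.259 (PCDHB4).

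The other 6 tested beta genes did not pass the test. Their fitted log2 fold changes ran from -1.0 in PCDHB5 to -0.36 in PCDHB12, the smallest in the cluster. PCDHB5 was counted 12 and 17 times in the controls and 13 and 1 times in the knockdown, so its estimate (SE 0.58) rested on the second knockdown library. PCDHB12 gave 75 and 73 against 67 and 44 counts. PCDHB14 lay just outside the threshold, with 83 and 75 against 62 and 30 counts (-0.75 ± 0.24, adjusted p = 0.0632 in edgeR). PCDHB1, at the alpha side of the cluster, was not tested and gave 1 and 1 counts in the controls and 4 and 2 in the knockdown. Of the beta pseudogenes, PCDHB17P was called lower (39 and 55 against 28 and 20 counts, -0.90), while PCDHB18P (-1.06) and PCDHB19P (-1.01) missed the threshold.

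**Figure D1:**
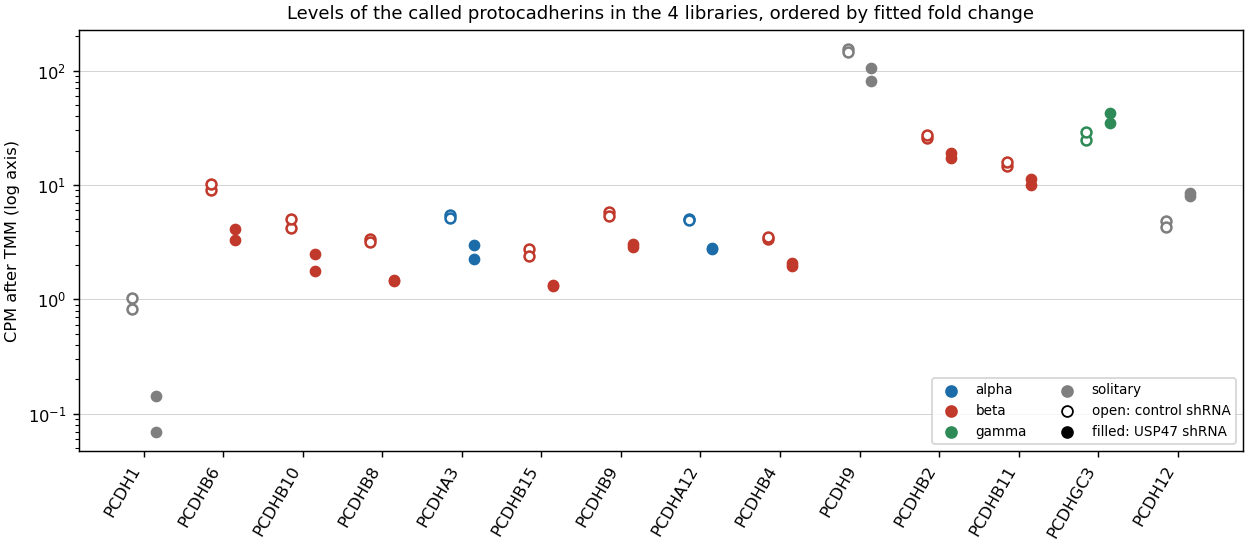
Level of the 14 called protocadherins in each library, in CPM after TMM on a log axis, ordered from the largest fitted fall (left) to the largest rise (right), with open points for control shRNA and filled points for USP47 shRNA. In all 14 the points of the groups are separate, and PCDHGC3 and PCDH12 are the genes whose knockdown points lie above the control points.

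Promoter sequences are shown because the beta genes are known to share a short promoter element. Its part in the fitted changes was not tested. RefSeq sequences from 250 bases before to 50 bases after the start (GRCh38.p14) were at hand for 57 of 65 members, and not for PCDHA3, PCDHA13, PCDHB6, PCDHB11, PCDHGA12, PCDHGC5, PCDH10 and PCDH20. The known element of clustered protocadherin promoters has CGCT as its core. On either strand these 4 letters occurred in 71.9% of all 27305 genes' sequences, so the core alone says little. For each cluster the most frequent word of 8 letters that holds CGCT was therefore listed. These words were chosen for being frequent, and their counts in the cluster they came from are a description. In the beta cluster it was GTGGCGCT, found in 13 of 14 beta sequences and lacking in PCDHB1, against 1.38% of all genes. The 13 included PCDHB3, PCDHB5, PCDHB7, PCDHB12, PCDHB13 and PCDHB14, which were tested and not called, and PCDHB16, which had no counts. In the alpha cluster it was ATGTCGCT, found in 9 of 13 sequences against 0.282% of all genes. In the gamma cluster it was GCCGCTGT, found in 11 of 20 sequences against 1.98% of all genes. None of the 3 words occurred in a sequence of another cluster or of a solitary member.

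Stretches of 30 bases around the core, from called beta genes with an entry, from PCDHB1, which lacks the beta word, and from the called genes PCDHA12 and PCDHGC3, were aligned on the core, which is in capitals. All are on the plus strand, 5′ to 3′, and coordinates are of GRCh37, found by an exact match of the 250 upstream bases. PCDHB2 had no exact match and was not placed.
PCDHB4 (chr5:140501307-140501336): aagacgcagggtggCGCTgcaggctaagtt
PCDHB9 (chr5:140566650-140566679): aagccacaaggtggCGCTgcagactgaaga
PCDHB10 (chr5:140571874-140571903): aggccacacggtggCGCTgcaggctaaaga
PCDHB15 (chr5:140624884-140624913): acaacgcatggtggCGCTgcaggctaaggc
PCDHB2: gagacgcggggtggCGCTgcagccttagaa
PCDHB1 (chr5:140430861-140430890): ctggggagttgagtCGCTcaatgcaaattt
PCDHA12 (chr5:140254831-140254860): cagtcacatgatgtCGCTctacactcagaa
PCDHGC3 (chr5:140855449-140855478): gggactctgtgtgcCGCTgtcggccaatga
The first 5 stretches hold the beta word GTGGCGCT, and those of PCDHB1, PCDHA12 and PCDHGC3 do not. In PCDHB8 the word lay after the annotated start. All 250 bases upstream of PCDHGC3, the gamma gene called higher, are given because its promoter held 5 copies of CGCT on this strand, more than any other clustered member with an entry.
PCDHGC3 upstream (chr5:140855283-140855532): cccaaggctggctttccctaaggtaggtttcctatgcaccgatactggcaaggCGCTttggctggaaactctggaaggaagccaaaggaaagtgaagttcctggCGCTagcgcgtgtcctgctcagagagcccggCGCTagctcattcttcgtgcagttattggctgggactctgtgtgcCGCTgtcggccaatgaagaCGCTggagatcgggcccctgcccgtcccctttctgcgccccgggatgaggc
The upstream bases of PCDHB10, a beta gene called lower by both edgeR and DESeq2, are given beside it and held 1 copy. PCDHB2 and PCDHB4, also called lower in edgeR, held 2 copies each. PCDHAC1 (-0.40) and PCDHAC2 (0.38), neither of them called, held 3 copies each. A link between copies and fitted change was not tested.
PCDHB10 upstream (chr5:140571676-140571925): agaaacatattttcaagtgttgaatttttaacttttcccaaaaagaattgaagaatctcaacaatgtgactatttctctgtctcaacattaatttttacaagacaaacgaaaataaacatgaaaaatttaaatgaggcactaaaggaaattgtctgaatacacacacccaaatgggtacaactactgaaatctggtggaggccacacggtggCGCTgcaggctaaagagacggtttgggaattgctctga

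In the alpha cluster the fitted changes were smaller and nearly all in the same direction. All 15 alpha genes were tested. Of these, 13 had fitted log2 fold changes below 0 and 2 above, with a median of -0.40. The split of 13 and 2 was the same with DESeq2's size factors and by library size alone, with medians of -0.39 and -0.46. In 13 genes both knockdown libraries lay below both controls, and in 1 both lay above, beside 31.7% and 29.3% of all genes tested. PCDHA3 (chromosome 5, 140180613 to 140391932) had the largest fall. It was counted 92 and 101 times in the controls and 47 and 43 times in the knockdown (5.29 ± 0.195 against 2.63 ± 0.520 CPM). Its log2 fold change was -1.03 ± 0.22 (adjusted p = 0.0124 in edgeR). PCDHA12 gave 86 and 97 counts in the controls and 57 and 40 in the knockdown, with a log2 fold change of -0.86 ± 0.20 (adjusted p = 0.0183 in edgeR). DESeq2's Wald test called neither, with adjusted p of 0.0529 and 0.113.

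The alpha genes with the most counts did not pass the test. PCDHA10 was counted 220 and 272 times in the controls and 217 and 162 times in the knockdown (log2 fold change -0.31 ± 0.15, adjusted p = 0.188 in edgeR). PCDHA9 gave 183 and 206 against 186 and 115 counts, and PCDHA5 gave 186 and 189 against 161 and 115. After scaling, all of these lay lower in both knockdown libraries than in both controls, yet by margins that the spread between libraries did not separate from 0. PCDHA7, with 104 and 96 against 74 and 50 counts, was the nearest to the threshold (-0.64, adjusted p = 0.0577 in edgeR). PCDHA1, the most distal alpha gene, was counted 12 and 8 times in the controls and 17 and 4 times in the knockdown, with overlapping groups. PCDHAC2, the alpha isoform that serotonergic neurons use to space their axons, had the largest fitted value of the cluster. It was counted 53 and 47 times in the controls and 79 and 47 times in the knockdown (0.38 ± 0.23, adjusted p = 0.289 in edgeR). Its share of alpha counts was 3.09% (95% Wilson interval 2.37 to 4.02) and 2.53% (1.91 to 3.35) in the controls, and 5.22% (4.21 to 6.46) and 4.53% (3.42 to 5.97) in the knockdown. PCDHAC2 thus took a larger part of the smaller alpha total in both knockdown libraries. The intervals of the first control and the second knockdown library overlapped. PCDHAC2 was picked for its fitted value, so its larger share follows from that value and is no separate result.

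The gamma cluster was mixed. Of 20 tested gamma genes, 12 had fitted changes below 0 and 8 above, with a median of -0.15, and by library size alone 13 lay below. In 9 genes both knockdown libraries lay below both controls and in 5 both lay above, beside 31.7% and 29.3% of all genes tested. None was called lower in edgeR or DESeq2, and 4 were lower at an unadjusted p under 0.05 in edgeR. The nearest was PCDHGB3, with 130 and 142 counts in the controls and 104 and 74 in the knockdown (-0.55 ± 0.17, adjusted p = 0.0547 in edgeR). PCDHGA2 had the lowest fitted value, -0.98 ± 0.45, from only 15 and 12 against 7 and 6 counts. PCDHGB1 and PCDHGA4, next to PCDHGC3 in CPM, gave 232 and 263 against 216 and 160 counts (-0.33 ± 0.15) and 145 and 172 against 149 and 123 counts (-0.15 ± 0.17). PCDHGA3 was not tested, with 9 and 6 counts in the controls and 9 and 9 in the knockdown.

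PCDHGC3 was the gamma gene called higher. It encodes a C-type isoform known to bind Axin1 and dampen canonical Wnt signalling. PCDHGC3 (chromosome 5, 140855514 to 140892544) was counted 422 and 568 times in the controls and 721 and 615 times in the knockdown. Its level went from 26.9 ± 2.88 to 38.8 ± 5.78 CPM, with a log2 fold change of 0.52 ± 0.15 (adjusted p = 0.0411 in edgeR). Both knockdown libraries, at 34.7 and 42.8 CPM, lay above both controls, at 24.9 and 29.0 CPM. PCDHGC3 made up 21.2% (95% Wilson interval 19.4 to 23.0) and 25.0% (23.3 to 26.8) of gamma counts in the controls and 30.9% (29.0 to 32.8) and 35.0% (32.8 to 37.2) in the knockdown. The intervals of the groups did not overlap, though the libraries within each group also differed by more than counting error. As with PCDHB6, the share follows from the fitted change and is no separate result. The call was lost by library size alone (adjusted p = 0.0611) and with no filter (adjusted p = 0.0693 in edgeR), while the fitted value stayed above 0 at 0.45 and 0.49. Leaving out either control library also ended it.

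The C-type genes lie at the far ends of the alpha and gamma clusters and resemble one another more than their cluster neighbours. Of the 5, PCDHGC3 was the only one called. PCDHGC5, which had the largest fitted value among tested gamma genes, was counted 26 and 36 times in the controls and 50 and 37 times in the knockdown (0.55 ± 0.25, adjusted p = 0.160 in edgeR). PCDHGC4, the isoform that interneurons need to survive, gave 28 and 37 against 50 and 28 counts (0.31 ± 0.26). PCDHAC1 went the other way, with 155 and 143 against 125 and 93 counts (-0.40 ± 0.18). In PCDHAC2, PCDHGC3, PCDHGC4 and PCDHGC5 both knockdown libraries lay above both controls, and in PCDHAC1 both lay below. Over all genes tested, 29.3% had the first arrangement and 31.7% the second. In PCDHGC4 the nearest libraries stood at 1.89 CPM (control) and 1.95 CPM (knockdown). The median of the 5 was 0.38, against -0.43 for the 13 other alpha genes and -0.19 for the 17 other gamma genes tested. Fitted values above 0 were not particular to the C-type genes. Of the gamma genes nearest to them, PCDHGA10 (0.16), PCDHGB7 (0.16) and PCDHGA11 (0.27) lay above 0 and PCDHGA12 (-0.10) below, none of them called. In PCDHGB7 and PCDHGA11 both knockdown libraries lay above both controls. Along the gamma cluster, fitted change and position correlated across genes, with a Spearman's rho of 0.71 over 20 genes, against 0.25 over 15 alpha genes and 0.06 over 14 beta genes. Genes of a cluster share libraries and, in part, sequence, and these values are descriptions.

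**Figure D2:**
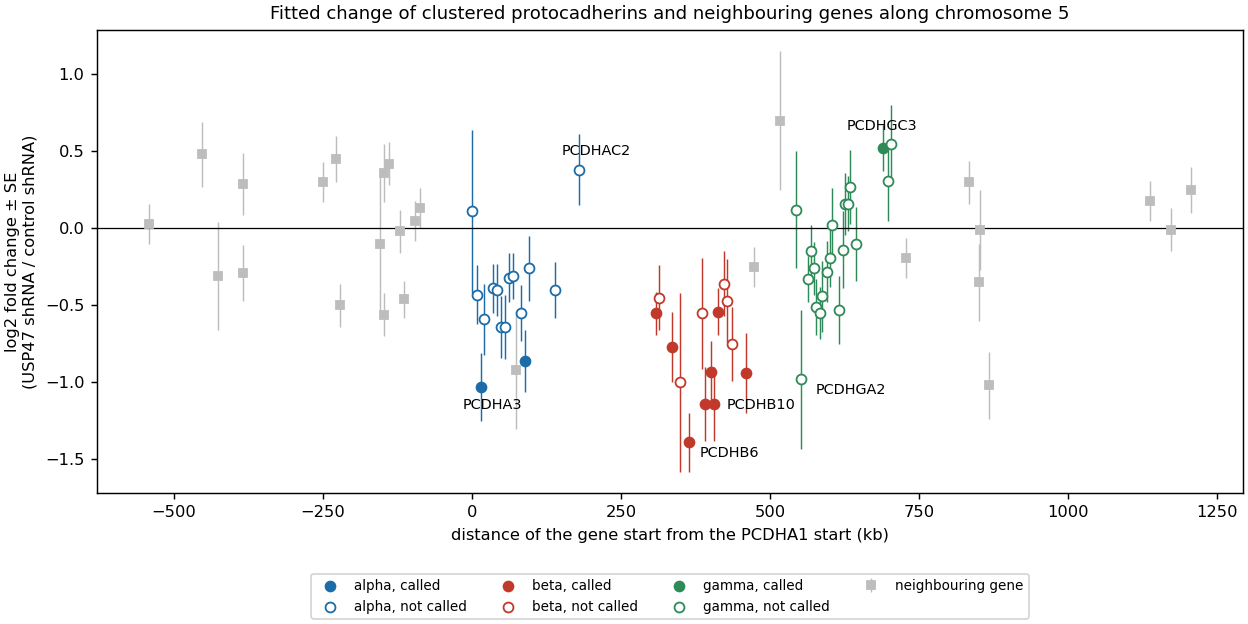
Fitted log2 fold change ± SE (USP47 shRNA over control shRNA, edgeR) of tested alpha, beta and gamma protocadherins and of neighbouring protein-coding genes against the distance of the gene start from the PCDHA1 start in kb. Filled circles are called protocadherins and grey squares are neighbours, without PCDH1 and PCDH12. All beta genes lie below 0, while the gamma genes go from PCDHGA2 at -0.98 to PCDHGC3 at 0.52 and PCDHGC5 at 0.55.

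Shared constant exons bear on how far alpha and gamma genes can be told apart. The constant exon bases shared by at least 80% of a cluster's members came to 2869 in alpha and 2177 in gamma. The lengths behind the deposited FPKM values included them, yet PCDHA1 held no more than 17 counts and PCDHGA3 no more than 9 in any library, while PCDHA10 held 162 to 272 and PCDHGB1 160 to 263. Reads in constant exons were therefore not credited to every member. Whether they were dropped or credited to some of them is not given in the sources used here. Per-length levels below divide the CPM by the deposited length less the constant exons. This takes the reads in constant exons as dropped, which was not established.

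The delta-1 protocadherins are known from neurons and some epithelia. PCDH9 was called lower. It was counted 2595 and 2820 times in the controls and 2190 and 1155 times in the knockdown, or 153 and 144 CPM against 105 and 80.5 CPM. Its log2 fold change was -0.67 ± 0.15 (adjusted p = 0.0155 in edgeR). The knockdown libraries differed from each other, and the fall ranged from -0.88 to -0.49 when each library was left out in turn. PCDH1, an adhesion protein of airway epithelium and a hantavirus receptor, was called lower at low counts of 14 and 20 in the controls and 3 and 1 in the knockdown. Its fitted log2 fold change was -2.96 ± 0.54 (adjusted p = 0.00647 in edgeR). From 34 against 4 counts, the ratio of knockdown to control was 0.122, with an exact 95% interval from counting error of 0.0316 to 0.343. DESeq2 gave PCDH1 no adjusted p. PCDH7, which binds the phosphatase PP1, was not called (419 and 479 against 565 and 421 counts, 0.20 ± 0.13). PCDH11X was not tested, with 3 and 1 against 2 and 1 counts.

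None of the 5 delta-2 protocadherins was called in edgeR or DESeq2, and 1, PCDH8, passed an unadjusted p of 0.05 in edgeR. PCDH18 held the most counts of the family. It gave 3271 and 3696 counts in the controls and 4284 and 3592 in the knockdown (0.26 ± 0.14, adjusted p = 0.234 in edgeR). PCDH17, which acts at presynaptic terminals, gave 1684 and 2101 against 2315 and 1277 counts (-0.04 ± 0.14), with overlapping groups. PCDH10 binds the WAVE complex through NCKAP1 and is often methylated in gastric carcinoma. It was counted 395 and 528 times in the controls and 596 and 454 times in the knockdown (0.26 ± 0.14, adjusted p = 0.225 in edgeR). PCDH8, an activity-induced protocadherin that drives N-cadherin uptake, had the largest fitted value of the class, 0.79 ± 0.32 (adjusted p = 0.122 in edgeR), from 22 and 15 against 37 and 25 counts. PCDH19 was not tested, with 6 and 8 against 15 and 6 counts. In PCDH8, PCDH10 and PCDH18 both knockdown libraries lay above both controls after scaling, but none of these differences passed the correction. That arrangement was found in 29.3% of all genes tested.

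PCDH12 and PCDH15 stand outside the delta groups. PCDH12, a protocadherin of endothelium and trophoblast, was called higher. It was counted 82 and 84 times in the controls and 165 and 122 times in the knockdown, or 4.56 ± 0.391 against 8.22 ± 0.400 CPM. Its log2 fold change was 0.85 ± 0.18 (adjusted p = 0.0122 in edgeR), and DESeq2 called it too. The endothelial markers CDH5, VWF and KDR summed to 0.825 and 1.33 CPM in the controls and 0.962 and 0.836 CPM in the knockdown, so they did not rise beside it. Leaving out either control library ended the PCDH12 call, with fitted values from 0.76 to 0.94 over the leave-one-out fits. PCDH15, part of the tip link of hair cells, fell just outside the threshold, with 24 and 32 against 15 and 11 counts (-1.04 ± 0.32, adjusted p = 0.0508 in edgeR). Solitary members thus had calls in both directions, and their median of 0.20 lay above that of all genes.

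Compared per length, the solitary members PCDH18, PCDH9 and PCDH17 were the most abundant protocadherins in the controls. The other solitary members in the files stood at no more than 2.94 CPM per kb there. PCDH18 had a level of 32.2 CPM per kb in the controls and 38.5 in the knockdown. PCDH9 followed in the controls at 21.5 CPM per kb and dropped to 13.5 in the knockdown, beside PCDHGC3, which went from 10.6 to 15.3 CPM per kb. PCDH17 stood at 12.5 and 12.2 CPM per kb. On these lengths PCDHGC3 and PCDHB2 (9.67 CPM per kb) were close in the controls, whereas in the knockdown PCDHGC3 stood at 15.3 and PCDHB2 at 6.63 CPM per kb. The deposited TPM, which keeps the constant exons in the length, put PCDHGC3 (7.69 and 7.88) below PCDHB2 (13.7 and 12.8) in the controls. The order of alpha and gamma genes against beta and solitary genes thus depends on the length used. The next clustered genes in the controls were PCDHGB1 at 5.61, PCDHA10 at 5.54 and PCDHB11 at 4.45 CPM per kb. PCDHB6 went from 3.02 to 1.17 CPM per kb. In bulk RNA, fewer cells using a promoter and less RNA per cell cannot be told apart.

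**Figure D3:**
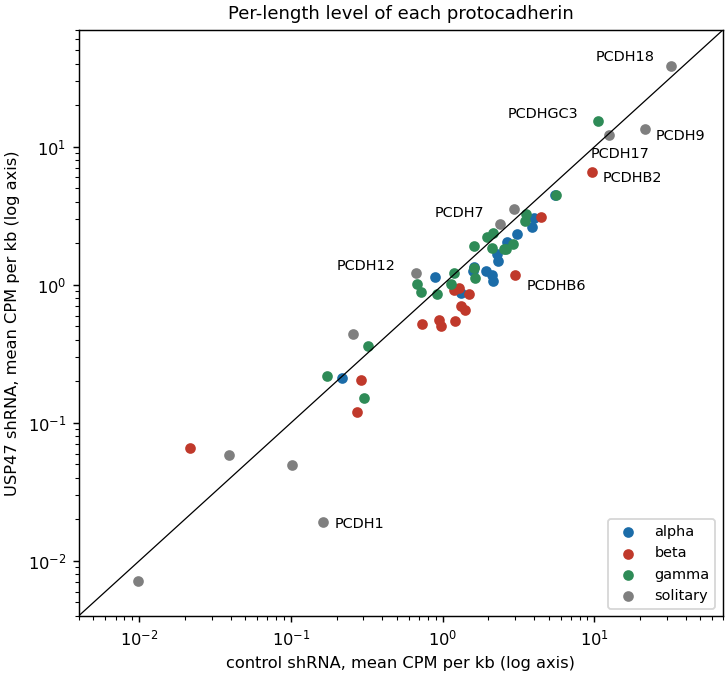
Mean CPM per kb of each protocadherin with counts in both groups, control shRNA (horizontal) against USP47 shRNA (vertical), on log axes with the line of equal level. Beta genes other than PCDHB1 lie below the line, PCDHGC3 and PCDH18 lie above it, and PCDH1 is farthest below it.

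Genes next to the clusters were examined for a change over the whole region. The clusters span 726.8 kb of chromosome 5 (140165721 to 140892544). Of 30 non-protocadherin protein-coding genes within 500 kb, 27 were tested, 4 were called lower and none higher, with a median of -0.01. PCDH1, called lower (-2.96), and PCDH12, called higher (0.85), also lie in this window and are left out of these counts. At an unadjusted p under 0.05, 4 neighbours were higher in edgeR, and DESeq2's Wald test called 3 lower and 0 higher. AC005609.1, inside the alpha cluster on the strand opposite PCDHA10, was not called (40 and 28 against 26 and 9 counts, -0.92 ± 0.38). Both of its knockdown libraries lay below both controls. TAF7 and SLC25A2, which lie between the beta and gamma clusters, were not called either. TAF7, a subunit of the general transcription factor TFIID, gave 706 and 759 against 744 and 457 counts (-0.25 ± 0.13), and SLC25A2, a mitochondrial ornithine carrier, gave 8 and 6 against 12 and 10 counts (0.70 ± 0.45). DIAPH1, the formin gene next to the gamma cluster, gave 4007 and 4987 against 4260 and 3232 counts (-0.19 ± 0.13). The called neighbours lay farther out. ARAP3, which inactivates ARF6 and RhoA, had the largest fall, with 100 and 127 against 54 and 52 counts (-1.02 ± 0.22, adjusted p = 0.0127 in edgeR). TMCO6 (-0.56), SLC35A4 (-0.50) and HARS1, the histidyl-tRNA synthetase (-0.46), fell by less. In the beta cluster 8 of 14 tested genes were called lower, against 4 of the 27 tested neighbours, and the difference between these shares was not tested.

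Of 23 listed regulators of promoter choice at the clusters, all were tested and 19 were not called. In this list 2 were called lower and 2 higher, 8.70% each and near the shares of all genes, with a median of 0.00. DNMT3B, the methyltransferase that methylates clustered protocadherin promoters in early development, was counted 692 and 846 times in the controls and 442 and 310 times in the knockdown (log2 fold change -0.97 ± 0.13, adjusted p = 0.00168 in edgeR). TET1, which oxidises methylated cytosine, also fell (2005 and 2151 against 1821 and 1113 counts, -0.46). TET3, an enzyme of the same kind, rose (2586 and 3093 against 4834 and 3485 counts, 0.62). WIZ, a zinc-finger partner of the G9a methyltransferase, rose from 1579 and 2027 to 2981 and 2384 counts (0.66). CTCF, which binds the promoters and their enhancers, gave 1695 and 2023 against 2199 and 1406 counts (0.00 ± 0.12). The cohesin subunits RAD21 (-0.18 ± 0.15), SMC1A (0.01 ± 0.14) and SMC3 (-0.02 ± 0.22) were not called, nor was SMCHD1 (-0.17 ± 0.17), a silencing factor known to act on the clusters. These are RNA levels, and promoter methylation and CTCF binding were not measured.

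Of 20 partner and processing genes in the files, 19 were tested, 2 were called lower and 1 higher. NCKAP1 and WASF3, subunits of the WAVE complex that protocadherin tails recruit, fell by 0.72 and 0.63 on the log2 scale. WASF2 (0.26), ABI1 (0.07), BRK1 (-0.15), WASF1 (-0.18) and ABI2 (-0.36), the other tested subunits in the list, were not called. TAOK2, the kinase that acts downstream of PCDH8, rose (0.50). ADAM10, which sheds gamma protocadherins, was not called (-0.19 ± 0.16). Of 30 classical and desmosomal cadherins, 16 were tested, 3 were called lower and 1 higher. CDH3, or P-cadherin, gave 26 and 32 against 6 and 9 counts (-1.87 ± 0.40), and the desmosomal cadherins DSC2 and DSG2 fell by 0.96 and 0.60 on the log2 scale. CDH26 rose from 12 and 12 to 53 and 21 counts (1.65 ± 0.37). Of 17 FAT, Dachsous, CELSR, calsyntenin and CDHR genes, 13 were tested and 5 were called lower. DCHS1 and DCHS2, ligands of FAT4 and its relatives, fell (-1.70 and -1.56), as did CLSTN3, a synaptic organiser (-1.54). CELSR2 and CELSR1, planar polarity receptors, fell less (-0.63 and -0.54). None of that list was called higher in edgeR, where 1 was at an unadjusted p under 0.05, and DESeq2 called 1 higher. These lists and the protocadherins were read against the same 9.56% and 6.52% of all genes tested.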

How the data were processed

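RNA-seq libraries were made from HGC-27 cells with control shRNA (2 libraries) or USP47 shRNA (2 libraries). Per the labels' processing notes the authors used STAR 2.7.5c, SAMtools 1.9, featureCounts and DESeq2 1.26.0 with hg19; the annotation and the strand setting are not given in the sources used here. The deposited files hold counts per gene, which were tested, and FPKM, from which gene lengths were recovered. The deposited TPM values served as an alternative for cluster sums. Positions are of GRCh37.

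Counts were fitted in edgeR 4.0.16 (R 4.3.3; TMM, filterByExpr, robust quasi-likelihood, Benjamini-Hochberg over 21932 genes), and the fit was tested on simulated data. DESeq2 1.42.0, other scalings and filters, a replicate block and leave-one-out fits were alternatives. Named genes were each called member, the 3 with the highest mean CPM in each class, the largest rise and fall in each class, called neighbours, and at most 4 called genes per list and direction; other genes were named after their values were seen. The members, lists and rules were chosen with earlier results of these data known. The control libraries correlated at 0.9961 and the knockdown libraries at 0.9915 (log2 CPM), and both pairs differed by more than sampling noise. Chi-square per degree of freedom was 5.328 between the controls and 18.62 between the knockdown libraries, so the knockdown libraries differed more.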

Additional observations from a re-analysis of the deposited data

How the results depend on the processing

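Over 58 member genes and the alternatives that refit them, 567 of 627 fitted values stayed on their side of the threshold, 32 lost the call, 28 gained one and 0 reversed. With 2 libraries per group the calls depend on each library, and low counts limit PCDH1, PCDHB5 and PCDHGA2. A library left alone in its group was assumed to vary like the other group. Why the settings differ was not tested.

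Leaving out each library in turn, 3 to 20 members were called lower and 0 to 4 higher. By cluster, 0 to 5 alpha, 2 to 10 beta, 0 to 3 gamma and 1 to 3 solitary members were lower, and 0 to 1 gamma and 0 to 3 solitary members were higher. The neighbours gave 0 to 6 lower and 0 to 5 higher calls, the regulators 1 to 8 and 0 to 5, the partners 0 to 5 and 0 to 4, the classical and desmosomal cadherins 2 to 6 and 1 to 3, and the FAT, Dachsous, CELSR, calsyntenin and CDHR genes 3 to 6 and 0 to 1. Each lowest count of lower calls came without a control library.

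Same-numbered libraries share only a number. Across the genes tested, the deviations of replicate 1 from its group mean correlated at 0.3247 between the groups. With the replicate block 23 members were lower, among them 8 alpha and 3 gamma genes, and 2 were higher, while 17.7% of all genes were lower and 16.1% higher. The block also gave 5 higher neighbours, 5 lower and 3 higher partners, 5 lower and 4 higher classical and desmosomal cadherins, and 1 higher FAT-group gene. USP47 kept its call at -1.37 with the block.

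DESeq2's Wald test called 3 members lower: 0 alpha, 2 beta and 1 solitary. It called 0 classical and desmosomal cadherins and 1 FAT-group gene higher. With an absolute log2 fold change of at least 1 as well, 5 members were lower (1 alpha, 3 beta and 1 solitary) and 0 higher (0 gamma, 0 solitary). That rule left 1 lower neighbour, 0 lower and 0 higher regulators, 0 lower and 0 higher partners, 1 lower classical or desmosomal cadherin and 3 lower FAT-group genes.

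By library size alone, which moved the median of all genes to -0.072, 1 member (0 gamma) was higher and 4 partners were lower. With no filter, 1 member (0 gamma) was higher. With at least 10 counts in every library, 1 gamma gene was lower and 2 classical and desmosomal cadherins were higher. The summed log2 ratios in deposited TPM were -0.56 for alpha, -0.81 for beta, -0.11 for gamma and -0.13 for solitary members. The solitary ratio was -0.10 by library size alone and -0.01 with DESeq2's size factors.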
